A study of Mus musculus with 8 samples.

Results

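A set of 9 genes of the FoxO pathway of muscle wasting, out of 35976 in the table, were followed in mouse myoblasts depleted of Atad2. They were the transcription factor genes Foxo1, Foxo3 and Foxo4, the ubiquitin ligase genes Fbxo32, Trim63, Fbxo30 and Fbxo21, the myostatin gene Mstn and the sestrin gene Sesn3, taken by symbol. The cells were C2C12, an established line of mouse skeletal muscle myoblasts able to form myotubes. In 4 libraries the cells carried a non-targeting shRNA (the control), and in 4 they carried an Atad2 shRNA. ATAD2 is a chromatin-bound ATPase whose bromodomain recognises acetylated histones. RNA was collected 48 h after transfection in both groups. All 8 libraries came from the one line. Whether they are independent transfections is not labelled, and the p-values therefore cover library-to-library spread, which may be technical. How many shRNA sequences were used, and in which medium the cells grew, the sources used here do not give.

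FoxO factors are forkhead transcription factors held in check by insulin and IGF signalling. When AKT is active it phosphorylates them, 14-3-3 proteins bind them and they leave the nucleus. When AKT activity falls they return and, in muscle, raise genes of protein breakdown. Among these are Fbxo32 (atrogin-1, or MAFbx) and Trim63 (MuRF1), the ligases by which muscle atrophy is most often followed. Fbxo32, Fbxo30 and Fbxo21 encode F-box proteins, the substrate-binding subunits of SCF ligases, whereas Trim63 encodes a RING ligase of the sarcomere. Mstn encodes a secreted inhibitor of muscle growth that signals through activin receptors and SMAD2 and SMAD3.

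Depth was 61.4 to 73.0 Mreads (M for mega) per control library and 50.3 to 72.3 Mreads per Atad2 library. A floor of 3 reads per library, applied to genes with no reads, corresponded to 0.0411 to 0.0596 RPM (reads scaled to a library of 1 Mread), and this floor covers counting error only. The targeted gene was lower in every library labelled Atad2 shRNA, with a log2 fold change of -2.73 ± 0.05 (6.66-fold lower, limma adjusted p = 4.6e-20). The 7 myoblast markers went both ways, with 3 higher and 4 lower, and all but Pax7 were clearly expressed in both groups. Pax7 had 19 to 41 reads per control library but 0 to 12 per Atad2 library, so the size of its change is uncertain. Des (desmin) rose by 0.38 ± 0.03 on the log2 scale, Myod1 by 0.25 ± 0.04 and Itga7 by 0.10 ± 0.04, while Pax7 fell by 3.27 ± 0.70, Myf5 by 1.28 ± 0.10, Cdh15 by 0.96 ± 0.05 and Vcam1 by 0.19 ± 0.06. Their summed level was 50867 to 54291 normalized counts in the controls and 55426 to 61105 in the Atad2 libraries, but without Des it was 24303 to 25923 and 21550 to 23907. Of the markers of differentiating muscle, 5 of 6 tested were higher with Atad2 shRNA and 0 lower, and the summed level of the 9 in the table was 726 to 928 normalized counts with control shRNA and 4658 to 5797 with Atad2 shRNA. Most of that difference came from Ttn (titin), and without it the sums were 471 to 651 and 858 to 1161. Acta1, the skeletal actin gene, did not pass at -0.09 ± 0.12. Myh8 and Actn2 of that list had at most 3 reads in any library. The fibroblast markers Thy1 and Lum, the macrophage marker Adgre1, the adipocyte marker Adipoq and the glial marker Sox10 were at 0 reads in all 8 libraries. Other genes of those lists were expressed, and of the tested ones Pdgfra (1.31 ± 0.04), Cd68 (1.17 ± 0.11) and Tubb3 (0.59 ± 0.10) were higher and Fabp4 (-1.80 ± 0.45) and Col3a1 (-0.16 ± 0.06) lower. On the second principal component, with 8.29% of the variance, 1 library lay apart, Atad2 replicate 3, and the calls for Foxo1 and Fbxo32 held without it. In these bulk samples, fewer cells of a type and less RNA per cell cannot be told apart.

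The unit of level is log2(normalized count + 1), and group values are mean ± SD with n = 4. Log2 fold changes are Atad2 over control shRNA ± SE, and on this scale they understate the change of weakly expressed genes. The set split into 7 genes with a mean above 3, which were tested, and 2 genes at or near 0 reads, which were not. Of the 7, Fbxo32 and Sesn3 were higher, Foxo1 was lower and 4 did not pass (limma, adjusted p under 0.05). That is 42.9% called, against 60.4% of all 14703 genes tested (30.8% higher and 29.6% lower). Among tested genes with a mean between 10 and 12, 64.5% were called. The values of the groups did not overlap for 1 of the 7, Foxo1, against 53.5% of all genes tested. All 7 changed by less than 2-fold, with log2 fold changes from -0.39 to 0.40 and a median of 0.02, where the median of all genes tested was -0.0095. The median absolute log2 fold change was 0.0985 over the 7 and 0.177 over the 4549 tested genes with a mean between 10 and 12, the range of level in which all 7 lay.

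**Figure D1:**
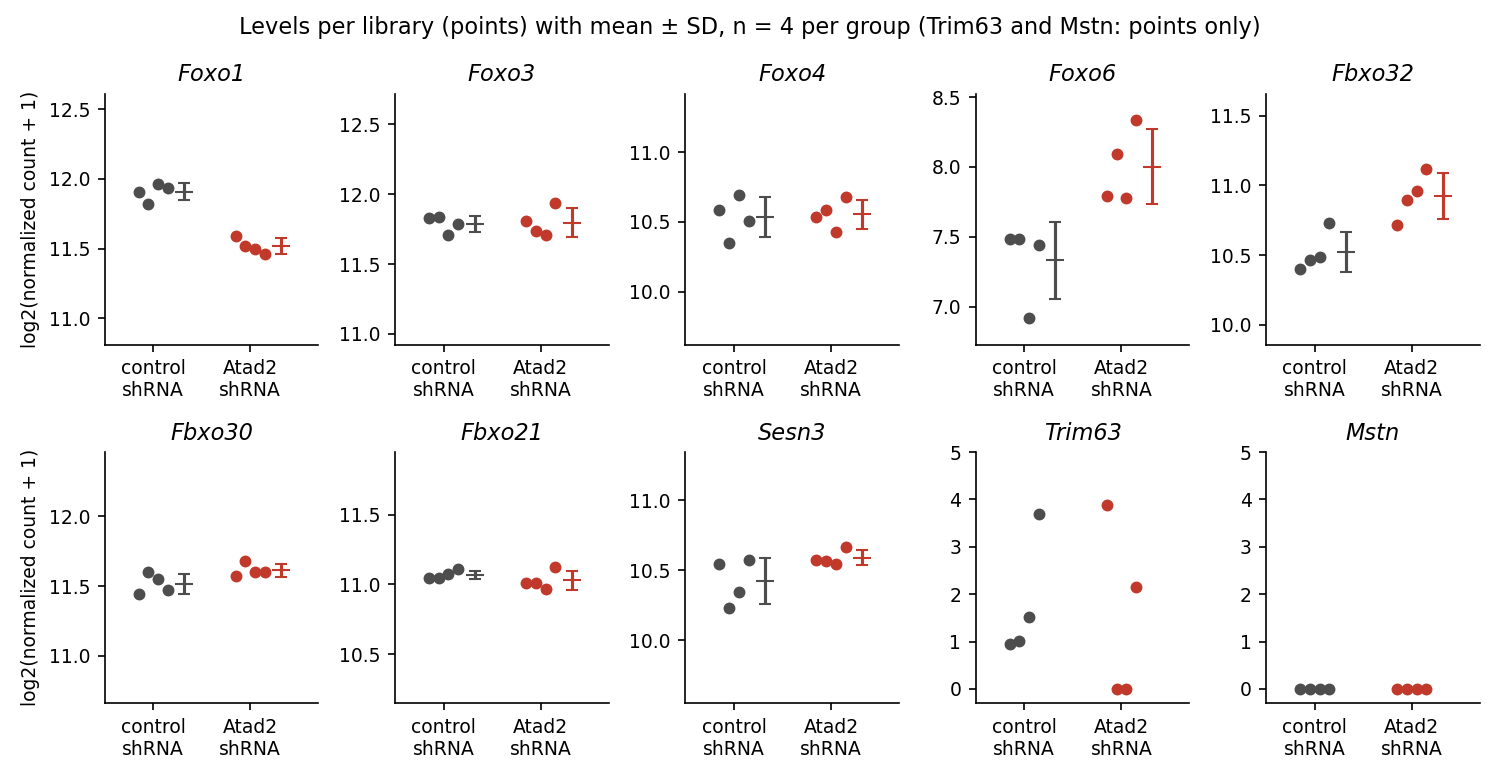
Level of each gene in each library on the log2(normalized count + 1) scale, with control shRNA libraries in grey and Atad2 shRNA libraries in red; bars give the mean ± SD (n = 4 per group) and are left out for Trim63 and Mstn, and the vertical axis spans 1.8 log2 units except in those panels. The groups of Foxo1 and Foxo6 did not overlap, 1 control library of Fbxo32 lay above the lowest Atad2 library, and Mstn was at 0 in all 8 libraries.

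Foxo1 was lower in every Atad2 library, while Foxo3 and Foxo4 showed no difference beyond the spread. Foxo1, the FoxO factor best known for driving gluconeogenic genes in liver and atrophy genes in muscle, lies on chromosome 3 (52268336 to 52353221, plus strand, GRCm38, protein-coding). Its level was 11.91, 11.82, 11.96 and 11.93 in the controls and 11.59, 11.52, 11.50 and 11.46 in the Atad2 libraries. The highest Atad2 library thus lay below the lowest control library, and the spread within each group was narrow. Its mean level moved from 11.91 ± 0.06 to 11.52 ± 0.06, a log2 fold change of -0.39 ± 0.04 (95% interval -0.48 to -0.30, 1.31-fold lower, limma adjusted p = 1.2e-07). By exact permutation of the libraries (two-sided) p was 0.0286, and 4 against 4 cannot give a lower value. These values rested on 3601 to 4606 reads per control library and 2251 to 3384 reads per Atad2 library. Of the 4616 tested genes within 1 log2 unit of its level, 6.48% were lower by at least as much and 17.0% changed by at least as much in either direction. The gene models Gm20402 and Gm38034 overlap Foxo1 in GENCODE. The sources used here do not give the strand setting of the counting, and reads of those models cannot be told apart from reads of Foxo1.

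Foxo3, a FoxO factor known for inducing both atrophy ligases and autophagy genes in muscle fibres, lies on chromosome 10 (42181841 to 42276755, minus strand). Its level was 11.83, 11.83, 11.71 and 11.78 in the controls and 11.81, 11.74, 11.71 and 11.94 in the Atad2 libraries. The groups overlapped almost completely, and Atad2 replicate 4 was the highest of the 8. The log2 fold change was 0.0078 ± 0.05, with a 95% interval of -0.09 to 0.11 (limma adjusted p = 0.90), and its sign changed under 5 of 19 alternative settings. The lower bound of this interval lay above the upper bound of the interval of Foxo1.

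Foxo4, the X-linked member of the family (chromosome X, 101254528 to 101260873, plus strand), was the weakest of the 3 in read number, with 1069 to 1781 reads per library. Its level was 10.59, 10.35, 10.69 and 10.51 in the controls and 10.54, 10.59, 10.43 and 10.68 in the Atad2 libraries. Both groups covered nearly the same range. The log2 fold change was 0.02 ± 0.07 (95% interval -0.12 to 0.17, limma adjusted p = 0.79), and its sign changed under 2 of 19 alternatives.

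The family's remaining gene, Foxo6, is not one of the 9 and is a brain-enriched factor that lacks the last AKT site of its relatives. It was weakly expressed, at 129 to 204 reads in the controls against 170 to 285 with Atad2 shRNA. Its level was 7.48, 7.48, 6.92 and 7.44 in the controls and 7.80, 8.10, 7.78 and 8.34 in the Atad2 libraries. All Atad2 libraries lay above all controls, and control replicate 3 lay below the other controls. The log2 fold change was 0.67 ± 0.17 (limma adjusted p = 0.0015), larger in size than that of Foxo1 and opposite in direction. Falls of this size were common at its level, but rises were not. Of the 1570 tested genes within 1 log2 unit, 34.1% changed by at least as much in either direction, against 17.0% for Foxo1. In the direction of Foxo6, 6.18% were higher by at least as much, and 28.0% were lower. For Foxo1, the share lower by at least as much was 6.48%. The log2 fold change of Foxo6 ranged from 0.53 to 1.01 over 19 alternatives, the largest value being that under quantile normalization. The call held under all of them.

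Divided by exon length (the union of all annotated exons of a gene), the FoxO factors were closer to each other than their read numbers were. In the controls the normalized count per kb of exon was 468 ± 18.3 for Foxo3, 443 ± 18.3 for Foxo1 and 427 ± 42.2 for Foxo4, and these 3 ranges overlapped. Foxo6 stood at 62.0 ± 10.9 per kb. In the Atad2 libraries Foxo3 stood at 471 ± 34.4 and Foxo4 at 433 ± 31.0 per kb, with overlapping ranges, while Foxo1 at 339 ± 13.3 lay below both without overlap. Foxo1 therefore made up 31.7 ± 0.73% of the summed FoxO level per kb with control shRNA and 25.3 ± 1.89% with Atad2 shRNA, and Foxo6 made up 4.44 ± 0.83% and 7.35 ± 1.05%. The sum itself was 1400 ± 41.0 per kb with control shRNA and 1341 ± 74.8 with Atad2 shRNA, with overlapping ranges (1342 to 1434 and 1253 to 1436).

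A ratio taken within a library does not move with the scaling of that library. The log2 ratio of Foxo1 to Foxo3 was 0.08, -0.01, 0.25 and 0.15 in the controls and -0.21, -0.22, -0.20 and -0.48 in the Atad2 libraries. Every Atad2 library thus had less Foxo1 relative to Foxo3 than any control. The mean ratio differed by -0.40 (exact permutation p = 0.0286, and 0.0571 after Benjamini-Hochberg adjustment over the 4 ratios compared). The log2 ratio of Foxo1 to Foxo4 moved from 1.37 ± 0.09 to 0.96 ± 0.13, a difference of -0.41, also without overlap (exact permutation p = 0.0286, adjusted 0.0571). With 4 libraries a group and 4 ratios, neither passed after adjustment.

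**Figure D2:**
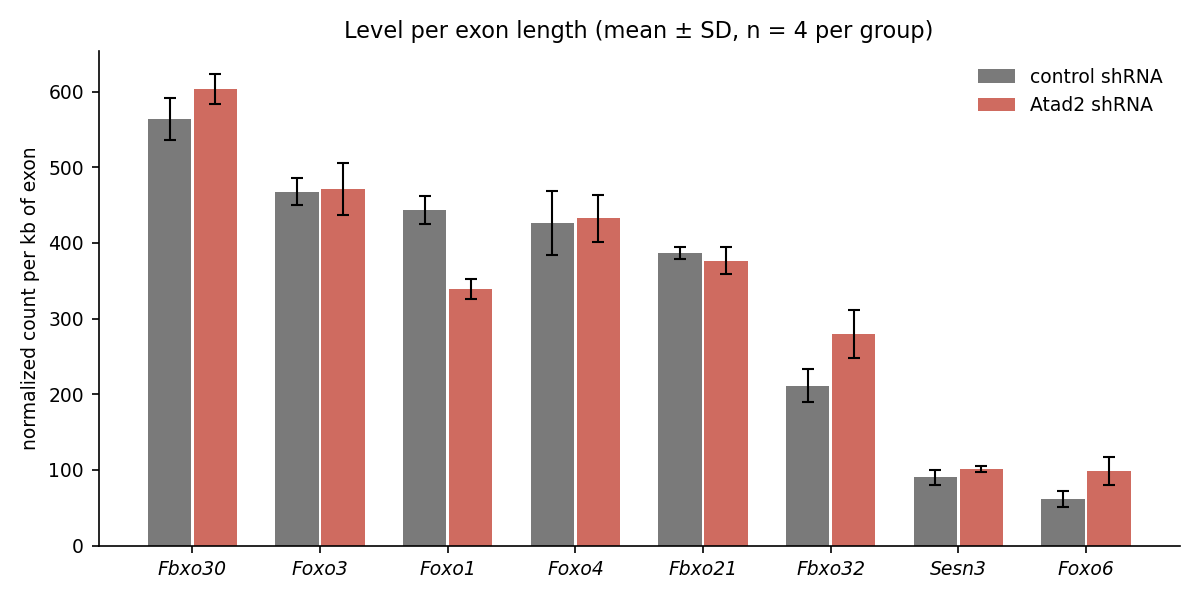
Level divided by exon length in normalized counts per kb of exon, as bars for the mean ± SD over 4 libraries, with control shRNA in grey and Atad2 shRNA in red. Fbxo30 was highest in both groups, Foxo1 dropped from 443 to 339 per kb while Foxo3 and Foxo4 stayed within their spread, and Fbxo32 rose from 212 to 279 per kb.

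Of the classical pair of atrophy ligases, Fbxo32 rose and Trim63 was nearly silent in both groups. Fbxo32, the gene of atrogin-1, whose known substrates include MyoD and the initiation factor eIF3f, lies on chromosome 15 (58175879 to 58214932, minus strand). Its level was 10.40, 10.47, 10.49 and 10.73 in the controls and 10.72, 10.90, 10.96 and 11.12 in the Atad2 libraries. In Fbxo32, 3 Atad2 libraries lay above all controls, and the fourth, replicate 1, lay just below control replicate 4. The mean level moved from 10.52 ± 0.15 to 10.92 ± 0.17, a log2 fold change of 0.40 ± 0.08 (95% interval 0.24 to 0.56, 1.32-fold higher, limma adjusted p = 0.00013). By exact two-sided permutation p was 0.0571, since 1 control value was higher than the lowest Atad2 value. Of the 4320 tested genes within 1 log2 unit of its level, 8.91% were higher by at least as much. The limma call held under all 19 alternatives, with log2 fold changes of 0.34 to 0.47. The rise went together with that of the differentiating-muscle markers given above. The part of those cells in it was not tested. The model Gm15943 overlaps Fbxo32 in GENCODE, and the limit on strand given for Foxo1 holds here too.

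Fbxo32 is a close neighbour of the targeted gene. The gene bodies of Atad2 (chromosome 15, 58094044 to 58135082) and Fbxo32 are 40.796 kb apart on the same chromosome, with Wdyhv1 between them. This was examined after the values were seen. Wdyhv1, which encodes an N-terminal glutamine amidase, had a log2 fold change of -0.12 ± 0.08 and did not pass (limma adjusted p = 0.181). On the other side of Atad2, Zhx1, a zinc finger and homeobox gene, was lower by -0.37 ± 0.04. The next gene measured there, 9130401M01Rik, was higher by 0.39 ± 0.04. Of the 14 other genes tested within 1000 kb of Atad2, 6 were higher and 4 lower (71.4% called, against 60.4% of all genes tested, 30.8% higher and 29.6% lower). Whether the place of Fbxo32 has a part in its rise was not tested.

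**Figure D3:**
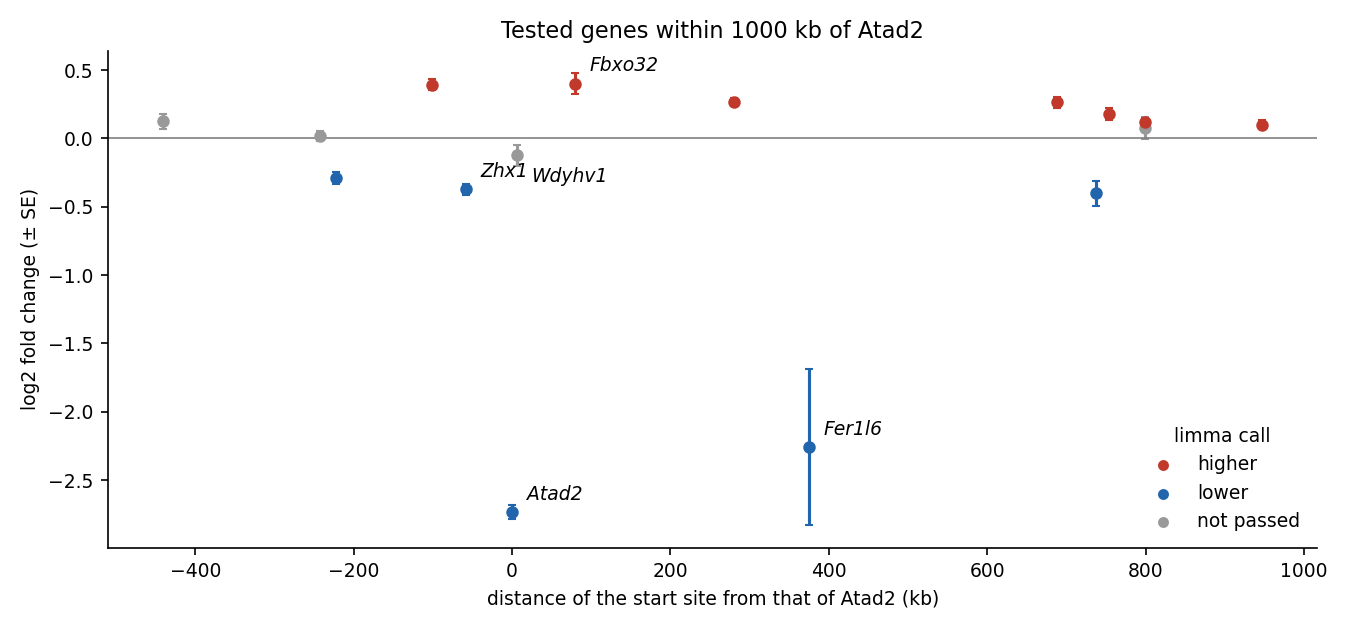
Log2 fold change (± SE, Atad2 over control shRNA, 4 libraries each) of the 16 tested genes within 1000 kb of Atad2 against the distance of their start site from that of Atad2 in kb; red points were called higher, blue lower and grey did not pass (limma adjusted p under 0.05). Atad2 stood at -2.73, Wdyhv1 at -0.12 and Fbxo32 at 0.40, and higher and lower genes were interspersed.

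Trim63, the gene of MuRF1, which ubiquitinates myosin heavy chain and other thick-filament proteins, lies on chromosome 4 (134315120 to 134329629, plus strand). The stretch before its start is shown because FoxO factors and the glucocorticoid receptor are known to act there together. The RefSeq promoter table (GRCm38.p6) gave it at chr4:134314870-134315109 on the plus strand, read here 5′ to 3′ up to 11 bases before the start. Capitals mark 2 motifs found by search on both strands, the paired half-sites GAACA and TGTTC spaced by 3 bases, and, 1 base further on, TGTTTAC, the reverse complement of the FoxO motif GTAAACA.
Trim63: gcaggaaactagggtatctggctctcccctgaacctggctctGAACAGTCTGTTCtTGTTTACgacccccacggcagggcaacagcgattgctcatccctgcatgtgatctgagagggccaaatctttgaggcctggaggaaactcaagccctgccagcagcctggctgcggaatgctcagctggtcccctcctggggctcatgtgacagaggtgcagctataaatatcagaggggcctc

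The FoxO motif lies 194 to 188 bases before the start and the paired half-sites 208 to 196 bases before it. Of the 7 genes of the set that matched the promoter table, Trim63 was the one whose 300-base window held the FoxO motif, against 3.65% of all 32851 windows. Foxo4 and Fbxo32 were unmatched. The paired half-sites, a search added after the sequence had been seen, stood in 0.0578% of windows, and both motifs together in 2 windows. A match is a description of the letters and says nothing of binding in these cells. Trim63 itself had 1, 1, 2 and 14 reads in the control libraries and 15, 0, 0 and 3 in the Atad2 libraries, 18 in all in each group. The highest count was in control replicate 4 in one group and in Atad2 replicate 1 in the other, so single libraries held most of the reads. In normalized counts per kb of exon Trim63 lay between 0 and 4.82 in every library, against at least 194 for Fbxo32. No fold change is given at these counts.

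Fbxo30 and Fbxo21 changed little. Fbxo30, which encodes the SCF subunit MUSA1, an atrophy ligase restrained by BMP signalling, lies on chromosome 10 (11281330 to 11298052, plus strand). Its level was 11.44, 11.60, 11.55 and 11.47 in the controls and 11.57, 11.68, 11.60 and 11.60 in the Atad2 libraries. Of the Atad2 libraries, 3 lay above the highest control, replicate 2, and most of these only narrowly. Its log2 fold change of 0.10 ± 0.04 did not pass (unadjusted 95% interval 0.0062 to 0.19, limma adjusted p = 0.061, exact permutation p = 0.0571). It passed without control replicate 2 (0.13, limma adjusted p = 0.025) and fell to 0.04 under quantile normalization (limma adjusted p = 0.48). Per kb of exon, Fbxo30 was the highest of the set in both groups, at 563 ± 27.8 and 603 ± 19.8.

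Fbxo21 encodes another F-box protein, known as SMART, that is induced in denervated and starved muscle under FoxO control, and lies on chromosome 5 (117976730 to 118010201, plus strand). Its level was 11.04, 11.04, 11.08 and 11.11 in the controls and 11.01, 11.01, 10.97 and 11.13 in the Atad2 libraries. For this gene 3 Atad2 libraries lay below the controls and replicate 4 above them. The log2 fold change was -0.04 ± 0.05 (95% interval -0.14 to 0.06, limma adjusted p = 0.49). The within-library log2 ratio of Fbxo32 to Fbxo30 moved from -0.99 ± 0.17 to -0.69 ± 0.16 with overlapping values (exact permutation p = 0.0857, adjusted 0.0857). That of Fbxo30 to Fbxo21 moved from 0.45 ± 0.08 to 0.59 ± 0.09, also with overlap (exact permutation p = 0.0571, adjusted 0.0762).

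Mstn (chromosome 1, 53061640 to 53068079, plus strand) had 0 reads in all 8 libraries, which allows up to 0.0411 to 0.0596 RPM per library. No difference could be measured at this depth.

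Sesn3 was slightly higher, and its call did not hold up. It encodes sestrin 3, a FoxO-induced protein that restrains mTORC1 through the GATOR complexes and AMPK, and lies on chromosome 9 (14275067 to 14333101, plus strand). Its level was 10.54, 10.23, 10.34 and 10.58 in the controls and 10.57, 10.57, 10.55 and 10.67 in the Atad2 libraries. The Atad2 libraries lay close together at the top of a wider control range, and 1 of them lay above every control. The log2 fold change was 0.17 ± 0.07 (95% interval 0.02 to 0.31, limma adjusted p = 0.042, exact permutation p = 0.143). Under 10 of 19 alternatives it no longer passed (limma adjusted p between 0.013 and 0.19 over the 19). It failed without control replicate 2 (limma adjusted p = 0.19) or 3 (0.12), and without Atad2 replicate 1 (0.059), 2 (0.061) or 4 (0.097). Of the other sestrins, Sesn2 fell by 0.45 ± 0.05 on the log2 scale, from 759 ± 28.8 to 556 ± 11.97 normalized counts per kb of exon (limma adjusted p = 3.2e-08). Sesn1 did not pass at -0.10 ± 0.06. Sesn3 was the lowest of the 3 sestrins per kb, at 90.2 ± 10.2 with control shRNA and 101 ± 3.87 with Atad2 shRNA. Its annotated exons cover 15.3 kb, against 3.98 kb for Sesn1 and 3.48 kb for Sesn2, and which of them these cells use was not examined.

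**Figure D4:**
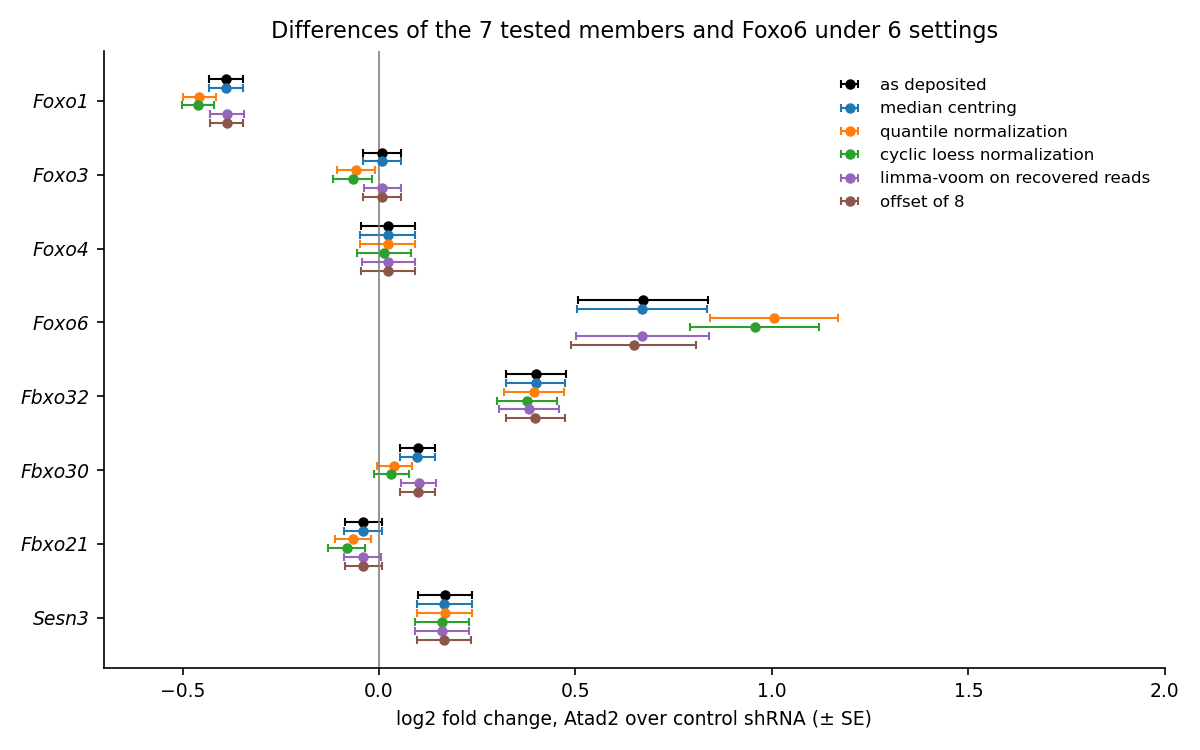
Log2 fold change (± SE, Atad2 over control shRNA, 4 libraries each) of the 7 tested genes and Foxo6 with the values as deposited and under 5 other settings. Foxo1 stayed below 0 and Fbxo32 and Foxo6 above 0 in all 6 settings, Foxo3 fell below 0 under quantile and cyclic loess normalization, and Fbxo30 moved toward 0 under those 2.

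The genes around the set were followed in lists, and the calls in each are given beside the 60.4% called among all genes tested. Among the 4549 tested genes with a mean between 10 and 12, 64.5% were called, 37.9% higher and 26.6% lower, so genes at that level leaned upward. The members differed in direction in most lists. Quantile normalization makes the distributions of the libraries alike, and cyclic loess normalization evens out differences between libraries that depend on level. Both lowered the number of higher calls in several lists.

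Other ligase and ubiquitin genes of muscle wasting were mostly higher. Of 19 tested, 12 were higher, 2 lower and 5 did not pass (73.7% called), with a median log2 fold change of 0.16. Trim54 (MuRF3), a microtubule-binding relative of Trim63, rose by 1.58 ± 0.14, from 6.98 ± 0.08 to 8.57 ± 0.23 (limma adjusted p = 4.4e-09). Mdm2, the ligase of p53, rose by 0.30 ± 0.04, the polyubiquitin gene Ubb by 0.26 ± 0.04 and Trim32, a ligase mutated in a limb-girdle dystrophy, by 0.28 ± 0.04. Ubb is built of near-identical repeats, so its read number is uncertain. Nedd4, a HECT ligase, fell by 0.18 ± 0.03, and Traf6, a ligase of NF-kappaB signalling, by 0.15 ± 0.06. Traf6 no longer passed under 5 of 19 alternatives (limma adjusted p between 0.011 and 0.10 over the 19), and 4 of these dropped a single library (control replicates 1, 3 and 4, Atad2 replicate 1). The lower calls numbered 4 under quantile and 5 under cyclic loess normalization and 1 where Traf6 did not pass. Of the 2490 tested genes within 1 log2 unit of the level of Mdm2, 19.0% were higher by at least as much and 7.35% lower. Trim54 rose together with the differentiating-muscle markers, whose part in it was not tested.

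Of other FoxO-regulated genes, 26 were tested, and 12 were higher, 7 lower and 7 did not pass (73.1% called, median 0.06). Cat, the catalase gene, rose by 1.37 ± 0.05, from 11.88 ± 0.09 to 13.25 ± 0.07 (limma adjusted p = 6.7e-16). The repressor gene Bcl6 rose by 0.50 ± 0.05, the lysosomal protease gene Ctsl by 0.40 ± 0.04 and the translation repressor gene Eif4ebp1 by 0.32 ± 0.04. Sesn2 fell, as given above, and the autophagy conjugation gene Atg12 fell by 0.24 ± 0.05. Known targets thus went both ways, and under quantile or cyclic loess normalization the counts were 9 higher and 9 lower. Pck1, G6pc and Igfbp1, the FoxO targets of liver, had 0 reads in all libraries.

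Signalling from insulin and IGF to FoxO showed its largest changes at the ligand and at the adaptor. Of 21 genes tested, 5 were higher, 7 lower and 9 did not pass (57.1% called, median -0.05). Igf2, the growth factor made by differentiating myoblasts, rose by 4.00 ± 0.13, from 6.67 ± 0.33 to 10.68 ± 0.10 (limma adjusted p = 6.1e-16). Sgk1, a kinase that phosphorylates FoxO factors as AKT does, rose by 0.91 ± 0.04, while its relative Sgk3 fell by 0.74 ± 0.13. Irs1, the adaptor of both receptors, fell by 1.20 ± 0.05, from 14.44 ± 0.02 to 13.24 ± 0.14 (limma adjusted p = 7.6e-15). The phosphatase gene Phlpp1, which acts on AKT, fell by 0.48 ± 0.05 and the PI3-kinase gene Pik3cb by 0.58 ± 0.07. Phlpp2, the relative of Phlpp1, was slightly higher at 0.11 ± 0.05 (limma adjusted p = 0.042). Under quantile or cyclic loess normalization 3 were higher and 12 lower.

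Among 14-3-3 proteins and enzymes that act on FoxO proteins, 14 of 22 were higher, 4 lower and 4 did not pass (81.8% called, median 0.16). The 14-3-3 genes Ywhaz and Ywhag rose by 0.41 ± 0.03 and 0.37 ± 0.03, the acetyltransferase gene Ep300 by 0.33 ± 0.03 and the deubiquitinase gene Usp7 by 0.31 ± 0.03. Skp2, the F-box protein that targets FoxO1 for breakdown, fell by 0.79 ± 0.04 (limma adjusted p = 2.5e-12), and the 14-3-3 gene Ywhah by 0.42 ± 0.03. The 14-3-3 genes therefore moved in opposite directions. Quantile or cyclic loess normalization left 9 higher and made 6 lower. Of the 2109 tested genes within 1 log2 unit of the level of Usp7, 18.1% were higher by at least as much and 7.30% lower.

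In the myostatin and activin pathway, 6 of 19 tested genes were higher, 8 lower and 5 did not pass (73.7% called, median -0.02). The activin subunit genes Inhbb and Inhba fell by 1.40 ± 0.08 and 0.65 ± 0.08, the receptor gene Tgfbr1 by 0.38 ± 0.04 and the activin and myostatin antagonist Fst by 0.54 ± 0.08. Gdf11, the nearest relative of Mstn, rose by 0.89 ± 0.06, and Furin, a protease that cleaves the precursors of this family, by 0.58 ± 0.03. With Mstn at 0 reads, Gdf11 at 10.38 ± 0.08 with control shRNA and 11.26 ± 0.08 with Atad2 shRNA was thus the measured member of that pair. The activin subunits and their antagonist thus fell together, and both counts were 6 under quantile or cyclic loess normalization.

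Partners of the sestrins, the sestrins Sesn1 and Sesn2 included, were mixed, with 8 of 18 higher, 6 lower and 4 not passing (77.8% called, median 0.03). The AMPK catalytic subunit gene Prkaa1 rose by 0.64 ± 0.03, and the GATOR2 genes Sec13, Seh1l and Wdr59 by 0.25 ± 0.04, 0.24 ± 0.04 and 0.28 ± 0.05. The Rag GTPase gene Rraga fell by 0.47 ± 0.04, and the AMPK regulatory subunit gene Prkag2 by 1.14 ± 0.11.

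Core SCF and neddylation genes, with which F-box proteins work, gave 11 higher, 0 lower and 3 not passing of 14 tested (78.6% called, median 0.14). The ubiquitin-activating enzyme gene Uba1 rose by 0.36 ± 0.03, the NEDD8-conjugating enzyme gene Ube2m by 0.30 ± 0.03, Skp1a, the adaptor that holds the F-box, by 0.21 ± 0.04 and the RING subunit gene Rbx1 by 0.19 ± 0.03. These changes were small, and 5 were higher and 0 lower under quantile or cyclic loess normalization. Of the 2223 tested genes within 1 log2 unit of the level of Skp1a, 32.6% were higher by at least as much and 10.8% lower.

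Other known regulators of the atrophy ligases gave 7 higher, 3 lower and 4 not passing of 14 tested (71.4% called, median 0.07). Cebpb, an inflammatory activator of Fbxo32, rose by 0.85 ± 0.06, Junb, which opposes FoxO3 in muscle, by 0.48 ± 0.05 and Tnfrsf12a, the TWEAK receptor gene, by 0.49 ± 0.06. Myog, the differentiation factor that activates both ligases in denervated muscle, rose by 2.15 ± 0.26 (23 to 39 reads in the control libraries, 73 to 158 in the Atad2 libraries), and it is also one of the differentiation markers counted above. Ppargc1a, a coactivator that restrains FoxO3, fell by 2.22 ± 0.16, from 8.66 ± 0.19 to 6.45 ± 0.30, and Stat3 by 0.57 ± 0.03. The receptor gene Nr3c1, whose half-sites the Trim63 stretch holds, stood at 13.39 ± 0.04 and 13.40 ± 0.02 and did not pass (limma adjusted p = 0.71). Under quantile or cyclic loess normalization 5 regulators were higher and 6 lower.

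**Figure D5:**
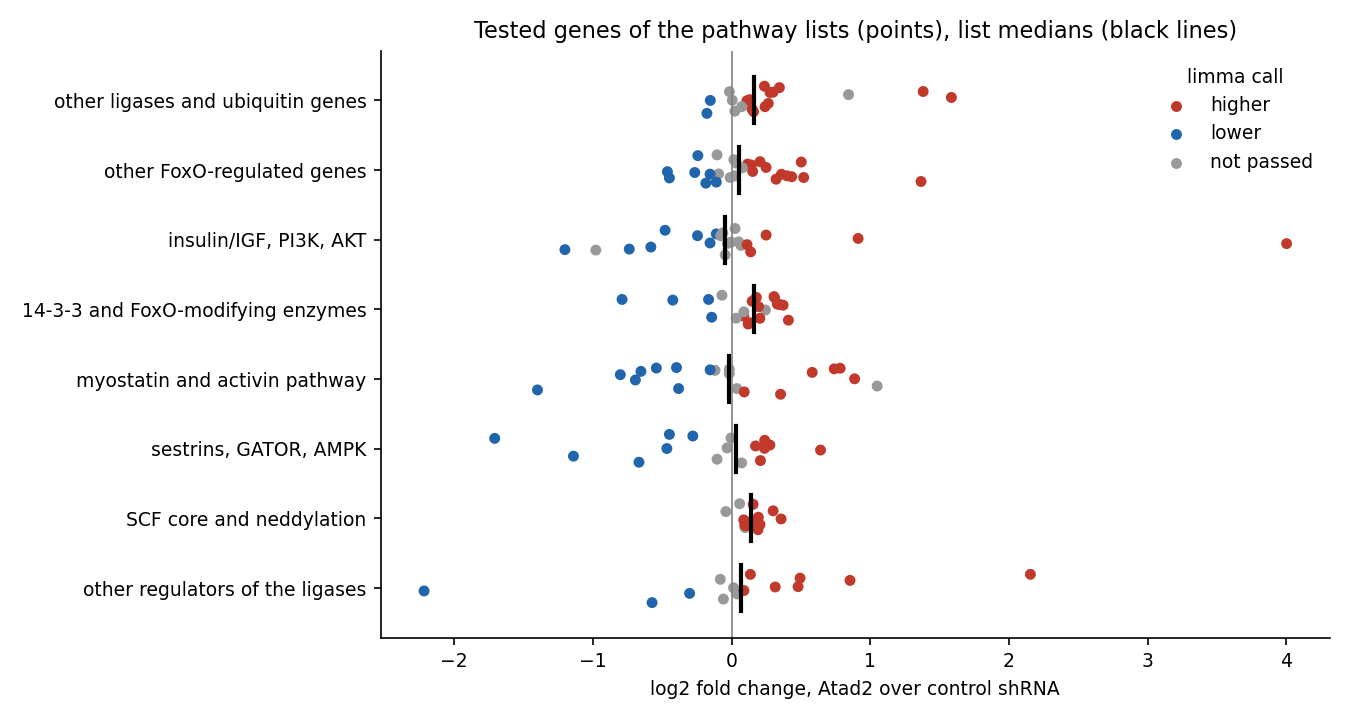
Log2 fold change (Atad2 over control shRNA, 4 libraries each) of every tested gene of the 8 lists, with the list median as a black line; red points were called higher, blue lower and grey did not pass (limma adjusted p under 0.05). List medians lay between -0.05 and 0.16, and single genes such as Igf2 at 4.00 and Ppargc1a at -2.22 lay far from them.

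The genes whose levels followed those of the set most closely were taken among 10061 tested genes with a mean of at least 8, by Pearson's r over the 8 libraries. For Foxo1 they were H2-K1 (r = 0.990), Rhbdd1 (0.990) and Fam234b (0.989), which fell by 0.63 ± 0.08, 0.54 ± 0.05 and 0.35 ± 0.07. For Fbxo32 they were Oip5 (0.986), Mff (0.963) and Coq9 (0.963), which rose by 0.26 ± 0.08, 0.12 ± 0.04 and 0.25 ± 0.05. The step between the groups, which the libraries of each group share, is part of these correlations. For Foxo3, which had no such step, they were Tor4a (0.959), Scarf2 (0.931) and Pknox2 (0.892), none of which passed. The highest r among 10061 genes over 8 libraries can be this high by chance, and no r was tested.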

How the data were processed

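RNA from 8 libraries of C2C12 cells was analysed. The submitters' processing notes name the build mm10 and the tools HTSeq 0.13.5, SAMtools 1.1, bcl2fastq 2.20 and, without a version, DESeq2. Aligner, annotation and strand setting: not given in the sources used here. The authors deposited log2 values, and the values themselves have the form log2(x + 1) with 3 decimals, x being reads scaled by one factor in each library. Once converted back, low values lay on whole multiples of one step per library (tolerance 0.1 reads), and reads and depth were recovered from that step.

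Genes with a mean above 3 entered a fit over all 8 libraries by limma 3.58.1 (lmFit, eBayes with trend, R 4.3.3), two-sided, with Benjamini-Hochberg adjustment over all genes tested. Single values were also compared by exact two-sided permutation tests. The alternatives changed the filter (none, or a mean above 5), the offset (8 instead of 1), the scaling (quantile normalization, median centring), the variance model (robust prior, no trend, library weights), the test (limma-voom on recovered reads, replicate as a block) or the libraries (each left out in turn). Cyclic loess normalization and the genes near Atad2 were chosen after seeing the data. The procedure was tested on simulated data.

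Positions and exon lengths came from GENCODE M21 (GRCm38, the assembly mm10 names) and promoters from RefSeq. An exon length is the union of all exons annotated for a gene, whether or not these cells use them, so levels per kb are approximate. The 9 genes and the lists were chosen with earlier results of these data known. From each list up to 4 genes called in the main direction and up to 2 in the other were named, by adjusted p, and 1 gene that this rule names is not reported here; Sesn1, Nr3c1 and the liver targets were named after their values were seen. Genes most like Foxo1, Foxo3 and Fbxo32 are the 3 with the highest r, predicted genes passed over. Libraries of a group differed by more than counting noise, so none was treated as a library deposited again; this does not show that they are independent cultures. Python 3.11.15, NumPy 2.4.6, pandas 2.3.3, SciPy 1.17.1 and matplotlib 3.10.9 were used for tables and plots.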

Additional observations from a re-analysis of the deposited data

Results flagged for a closer look

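In 120 groups of 4 values checked, 4 held a library far from the other 3, where chance gives about 1 in 20. Foxo6 was at 6.915 in control replicate 3, against 7.44 to 7.48 in the other controls. Ep300 was at 14.191 in control replicate 3, against 14.09 to 14.11, and at 14.401 in Atad2 replicate 4, against 14.47 to 14.48 in the other Atad2 libraries. The log2 ratio of Foxo1 to Foxo3 was -0.479 in Atad2 replicate 4, against -0.22 to -0.205 in the other Atad2 libraries. Foxo3 was at its highest, 11.94, and Foxo1 at its lowest, 11.46, in that library.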

How the results depend on the processing

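Foxo1 (log2 fold change -0.46 to -0.37), Fbxo32 (0.34 to 0.47), Foxo6 and Atad2 kept their direction and their call under all 19 alternatives. Foxo3, not called under any, was at -0.0583 under quantile normalization, at -0.0124 with library weights, at -0.0673 under cyclic loess normalization, and between -0.0394 (without Atad2 replicate 4) and 0.0386 when each library was left out. Foxo4, also never called, lay between -0.0384 (without control replicate 2) and 0.0756 when each library was left out. Fbxo30 passed with library weights (0.11, limma adjusted p = 0.0286) and with the replicate block (0.10, limma adjusted p = 0.0437), and lay between 0.0745 and 0.13 when each library was left out. Sesn3 did not pass without a filter (0.17, limma adjusted p = 0.065), under quantile normalization (0.17, 0.0507), without trend (0.17, 0.123), with library weights (0.14, 0.0735) or under cyclic loess normalization (0.16, 0.0541), and lay between 0.10 and 0.22 when each library was left out. The cause of these shifts was not tested. Of all genes, 370 were higher and 1265 lower with at least a 2-fold change. The groups share replicate numbers, and same-numbered libraries correlated at -0.09 to 0.22 in their deviations from the group means, over 0.1 for 1 of 4 pairs. Of the 8 libraries, 3 correlated best with their own number. Such weak correlations cannot settle whether same-numbered libraries were paired, and the labels do not say. The replicate block gave 4562 genes higher and 4379 lower. No scaling moved the median of all genes by over 0.1, but these methods keep that median nearly in place by design. Single genes could move more, as Foxo6 did from 0.67 to 1.01 under quantile normalization. Depth limits Trim63 and Mstn.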
